A study of Homo sapiens with 32 samples.

Results

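The transcripts of 45 genes, MYC and genes whose products build ribosomes, were followed in 2 human lung cancer lines. For each gene, probe sets carrying that single gene symbol were taken, and the one with the highest mean over the 32 arrays stood for the gene. By this rule 39 of the 45 genes were measured, out of 19775 genes in all. NOP56, DKC1, BOP1 and PPAN had only probe sets shared with other symbols (2, 3, 2 and 1 of them), and EBNA1BP2 and GNL3 were not matched, so these 6 genes were not analysed here. No filter on low values was applied, and all 39 genes entered every test.

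The lines are A549, from a lung adenocarcinoma, and H460a, from a large cell lung carcinoma and called H460 in the series text. Cells were plated at 35% confluency, left overnight, and then given vehicle or 2 µM RO4929097, an inhibitor of gamma-secretase, the protease that releases the active part of Notch receptors. RNA was taken after 6 or 24 h, which gave 8 groups of 4 arrays: each line, with vehicle or inhibitor, at each time. The labels do not name the vehicle and do not say that the 4 arrays of a group came from separate cultures. The p-values given here therefore cover only how much the arrays of a group vary. The arrays read RNA pooled over a culture, and fewer cells that make a transcript cannot be told apart from less of it per cell.

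Ribosome assembly begins in the nucleolus, where RNA polymerase I makes one long precursor RNA. Small nucleolar ribonucleoproteins (snoRNPs) of the box C/D and box H/ACA classes modify it, the small subunit processome and later factors cut and fold the part for the small subunit, and a separate set of factors assembles the large subunit. MYC, a transcription factor that pairs with MAX and binds the E-box CACGTG, is known to induce many of these genes, and demand for ribosomes is high in growing tumour cells. Of the 39 measured genes, 9 belong to polymerase I and the nucleolar body, 2 to box C/D and 3 to box H/ACA snoRNPs, 16 to the small subunit and 8 to the large subunit, beside MYC.

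The E-box was looked for in the RefSeq promoters (GRCh38.p14), windows of 300 bases from 250 before to 50 after the gene start, in which 34 of the 39 genes had an entry. The letters searched were CACGTG, which read the same on both strands. They stood in 14 of the 34 windows (41.2%), against 1407 of the 15843 windows of protein-coding genes (8.88%). The one nearest the gene start began after it in 10 of the 14 and before it in 4, and IMP4 and NOP10 held more than 1. Over the 250 bases before the start the shares were 11.8% and 7.84%. The E-box was also counted in the promoters of the other gene lists described further below. It stood in 10 of 28 other small subunit factors, 10 of 35 other large subunit factors and 1 of 12 other polymerase I genes. Among other MYC targets it stood in 10 of 20, and among MYC network genes in 3 of 13. A share above that of all protein-coding genes was therefore not particular to the 39 genes, though the polymerase I list lacked it. Stretches from 7 genes whose values are described here follow, each on the gene's own strand, with the E-box in capitals.
MRTO4: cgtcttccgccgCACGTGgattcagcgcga
PNO1: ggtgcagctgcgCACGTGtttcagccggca
WDR43: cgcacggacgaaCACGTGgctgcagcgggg
NOP2: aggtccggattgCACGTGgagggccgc
NAT10: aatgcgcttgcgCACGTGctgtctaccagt
NOP10: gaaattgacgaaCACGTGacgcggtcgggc
FBL: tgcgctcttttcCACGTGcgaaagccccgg

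The MRTO4 stretch lies at chr1:19251807-19251836 on the plus strand, PNO1 at chr2:68157885-68157914 (plus) and WDR43 at chr2:28894658-28894687 (plus). NOP2 lies at chr12:6568242-6568268 (minus), NAT10 at chr11:34105602-34105631 (plus), NOP10 at chr15:34343130-34343159 (minus) and FBL at chr19:39846356-39846385 (minus). In NAT10 and NOP10 the E-box shown began 15 and 11 bases before the gene start. In WDR43, FBL, PNO1, MRTO4 and NOP2 it began 3, 6, 9, 14 and 35 bases after it, so that it lies in the start of the transcribed region. A match describes these letters only, not binding by any factor.

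Levels are log2 of the deposited intensity, and differences are log2 differences ± the standard error of limma. A call is an adjusted p (Benjamini-Hochberg, over all 19775 genes) under 0.05. The arrays were not equally bright. The 4 A549 vehicle arrays at 6 h had mean intensities of 468 to 496 and A549 inhibitor arrays 1 and 2 at 6 h of 496 and 531, against 570 to 614 in the other 26 arrays, so counts of called members that rest on A549 6 h arrays are also given after quantile normalization over all 32 arrays. One H460a array, vehicle array 3 at 6 h, had a difference between the 3' and 5' control probe sets for actin of 2.19, against 0.14 to 0.42 in the other 31, and is called here the array with the high actin ratio. HES1, a Notch target that reports on the inhibitor, differed by -1.63 ± 0.13 at 6 h and -2.18 ± 0.13 at 24 h in A549 (adjusted p = 8.67e-10 and 1.29e-13, limma) and by -0.35 and -0.29 in H460a without a call. With vehicle HES1 stood at 9.63 and 9.99 in A549 at 6 and 24 h, but at 6.69 and 6.44 in H460a. The H460a levels lie under the median of all genes, so the missing call does not tell whether the inhibitor acted there. The epithelial keratins KRT8 and KRT18 were bright in A549 (mean 13.6 and 14.7) and in H460a (12.9 and 13.8), while CDH1 was at 10.3 in A549 and 4.57 in H460a and EPCAM at 5.60 and 4.76. The leukocyte genes PTPRC and CD3E read 5.27 and 6.89 in A549 and 5.20 and 6.83 in H460a. The endothelial genes CDH5 and PECAM1 read 4.91 and 7.61 in A549 and 4.89 and 7.28 in H460a. The fibroblast genes COL1A1, COL3A1 and DCN read 9.26, 5.70 and 7.29 in A549 and 9.18, 6.85 and 7.30 in H460a. The median level of all genes was 7.60.

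In H460a the ribosome assembly genes were lower at 24 h than at 6 h, while MYC was slightly higher. With vehicle, 34 of the 39 genes fell, against 15.3% of all genes, and 2 rose, against 15.1%. The median difference of the 39 was -0.64, and that of all genes 0.01. The falls covered every stage: 8 of 9 genes of polymerase I and the nucleolar body, 1 of 2 of box C/D, 3 of 3 of box H/ACA, 14 of 16 of the small subunit and 8 of 8 of the large subunit. NPM1 (-0.05), FBL (-0.11) and IMP3 (0.09) did not pass, and NOB1 and MYC rose.

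MYC stood at 12.52, 12.49, 12.47 and 12.54 in the 4 H460a vehicle arrays at 6 h and at 12.71, 12.63, 12.78 and 12.73 at 24 h. All 4 late arrays were above all 4 early ones, and the rise was 0.21 ± 0.063, or 1.16-fold (adjusted p = 0.00988, limma). With the inhibitor MYC stood at 12.50, 12.50, 12.51 and 12.46 at 6 h and at 12.70, 12.64, 12.70 and 12.65 at 24 h, again without overlap, a rise of 0.18 ± 0.063 (adjusted p = 0.0266).

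Among the genes of polymerase I and the nucleolar body, GPATCH4, a nucleolar protein with a G-patch domain, had the largest fall of all members. It stood at 10.68, 10.58, 10.82 and 10.64 at 6 h and at 9.30, 9.08, 9.35 and 9.24 at 24 h. The groups lay far apart, with SDs of 0.10 and 0.12 (n = 4), and GPATCH4 fell by 1.44 ± 0.073, 2.71-fold (adjusted p = 2.83e-16). LYAR, a nucleolar factor of precursor RNA processing, stood at 9.28, 9.64, 10.10 and 9.60 at 6 h and at 8.29, 8.39, 8.38 and 8.54 at 24 h. The highest LYAR value belongs to the array with the high actin ratio, and LYAR fell by 1.26 ± 0.12 with it and by 1.11 without it. DDX21, an RNA helicase of the nucleolus, fell by 0.83, MYBBP1A, a nucleolar protein that binds MYB, by 0.78, NOLC1, a chaperone of snoRNPs, by 0.73 and POLR1B by 0.72. NCL (nucleolin) fell by 0.44 and POLR1A, the largest subunit of polymerase I, by 0.30. NPM1 (nucleophosmin), an abundant nucleolar chaperone, stood at 14.56, 14.68, 14.63 and 14.58 at 6 h and at 14.59, 14.57, 14.52 and 14.59 at 24 h, in overlapping ranges.

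The snoRNP proteins fell unevenly. NOP58, a core protein of box C/D particles, fell by 0.92 ± 0.070 (adjusted p = 2.35e-12), while FBL (fibrillarin), their methyltransferase, stood at 12.65, 12.59, 12.76 and 12.64 at 6 h and 12.57, 12.48, 12.59 and 12.55 at 24 h and did not pass (adjusted p = 0.234). Of the box H/ACA core proteins, GAR1 fell by 0.67 ± 0.073, NOP10 by 0.27 ± 0.087 and NHP2 by 0.22 ± 0.060. NOP10 was at 13.03, 12.97, 12.43 and 12.99 at 6 h and at 12.55, 12.52, 12.65 and 12.64 at 24 h. Its ranges overlap through the array with the high actin ratio, at 12.43.

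Within the small subunit group, PNO1, which binds the small subunit precursor beside the nuclease NOB1, stood at 11.30, 11.42, 11.54 and 11.41 at 6 h and at 10.45, 10.38, 10.33 and 10.44 at 24 h. It fell by 1.02 ± 0.065, 2.03-fold, with no overlap (adjusted p = 5.18e-14). NOB1, the nuclease itself, went the other way, from 10.60, 10.54, 10.93 and 10.66 to 11.03, 10.92, 11.19 and 11.15. One early array, again the one with the high actin ratio, reached the late range, and NOB1 rose by 0.39 ± 0.071 with it (adjusted p = 3.77e-05) and by 0.47 without it. UTP15, a subunit of the processome module that acts with polymerase I, fell by 0.90, RRP9, a protein of the U3 snoRNP, by 0.83 and TSR1, a late small subunit factor, by 0.73. DDX10 fell by 0.66, BYSL by 0.65, IMP4, a U3-associated protein, by 0.64, RRP12 by 0.57, UTP20 by 0.56, WDR43 by 0.54 and NOP14 by 0.49. The smallest falls were WDR75 (-0.36), HEATR1 (-0.30) and NAT10 (-0.22), an RNA acetyltransferase. IMP3, a partner of IMP4, differed by 0.09 ± 0.099.

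All 8 large subunit genes fell. NOP16 stood at 12.19, 12.08, 12.11 and 12.25 at 6 h and at 10.84, 10.65, 10.92 and 10.90 at 24 h, a fall by 1.33 ± 0.057, 2.52-fold (adjusted p = 5.92e-18). MRTO4, which occupies the site of the ribosomal stalk on large subunit precursors, stood at 10.19, 10.23, 10.18 and 10.28 and then at 9.22, 9.07, 9.27 and 9.13, a fall by 1.04 ± 0.069 (adjusted p = 1.04e-13). The early and late arrays of both genes lay far apart. RRP15 fell by 0.87, NOP2, a ribosomal RNA methyltransferase, by 0.85, NIP7 by 0.77 and RRP1B by 0.56. WDR12 and PES1, which act in one complex with BOP1, fell by 0.41 and 0.37.

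**Figure D1:**
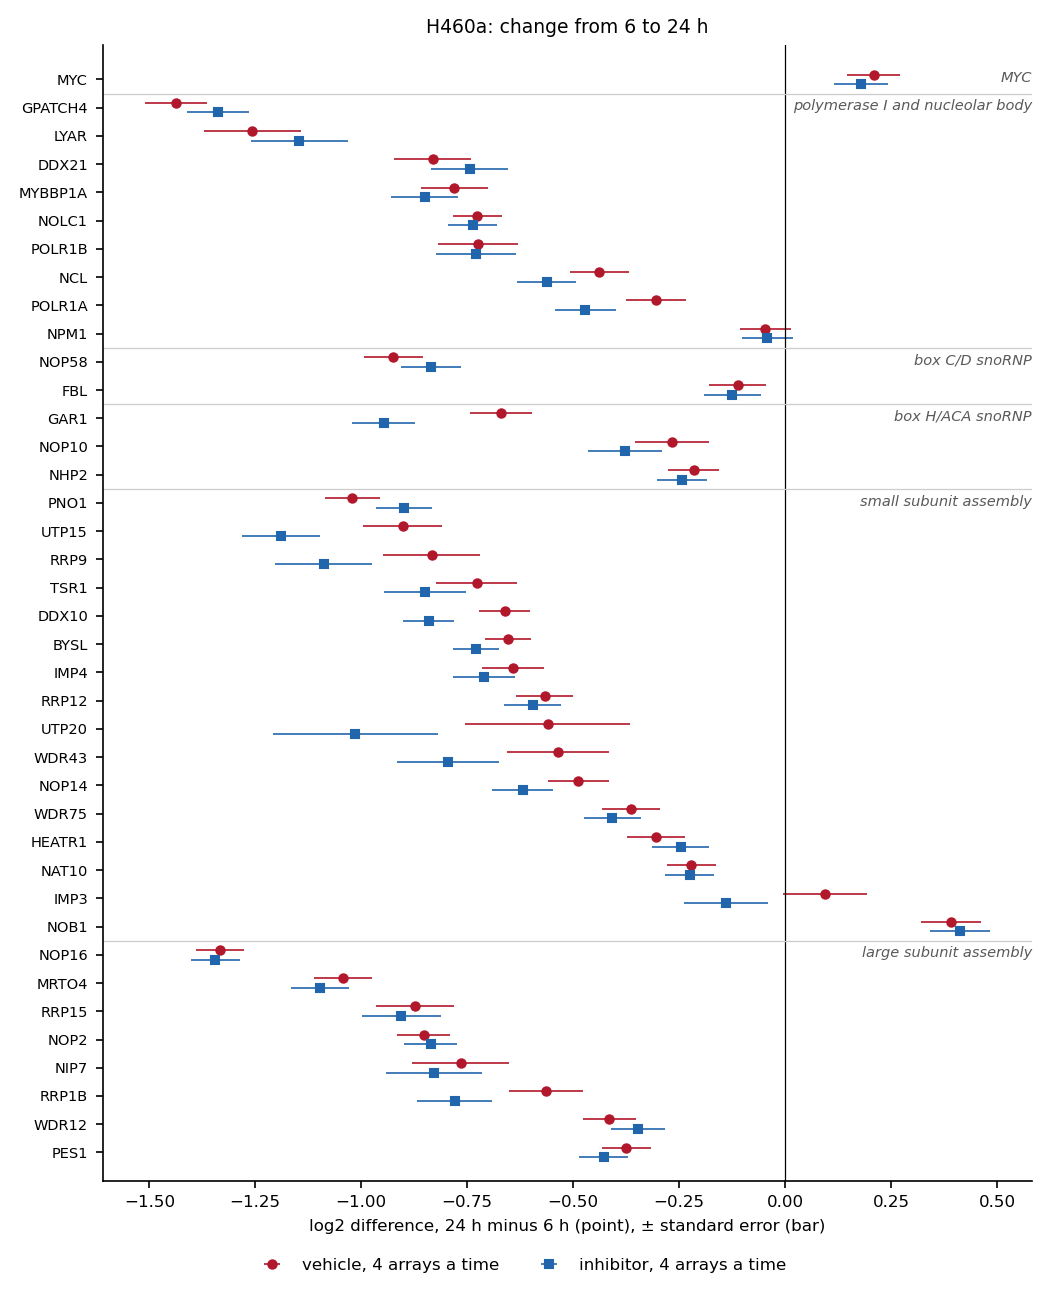
Difference between 24 and 6 h in H460a for the 39 genes, as log2 difference (point) ± standard error (bar), by role; red circles are vehicle and blue squares inhibitor, with 4 arrays a time. Both sets of points lie left of 0 for 34 called genes, from NHP2 (-0.22 with vehicle) to GPATCH4 (-1.44), while MYC and NOB1 lie to the right.

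The inhibitor arrays of H460a are separate arrays and gave the same picture. With inhibitor, 34 genes fell (18.2% of all genes did) and 2 rose (14.7%), the 34 being the same genes as with vehicle, with a median of -0.74. GPATCH4 fell by 1.34, NOP16 by 1.34, UTP15 by 1.19, LYAR by 1.15, MRTO4 by 1.10, RRP9 by 1.09 and UTP20 by 1.01. MYC and NOB1 rose by 0.18 and 0.41. All 4 late arrays lay below all 4 early ones for 32 genes with vehicle, against 14.5% of all genes, and for 34 with inhibitor, against 18.2%. After quantile normalization the vehicle arrays still gave 34 lower genes, the same ones, and 2 higher, against 15.7% and 16.4% of all genes, with a median of -0.60. Without the array with the high actin ratio and A549 inhibitor arrays 3 and 4 at 6 h the counts were 34 and 2 again.

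The 22 genes with more than 1 probe set allow a check within the same arrays. Of their 42 other probe sets, 39 had the direction of the one used for H460a vehicle. The exceptions were a probe set each of GPATCH4 (0.02), RRP12 (0.27) and PES1 (0.29), while the other probe sets of NOP16 and MRTO4 with the largest differences read -1.34 and -1.50. The size of a fall varied between probe sets of a gene. A PNO1 probe set almost as bright as the one used (mean level 10.77 against 10.95) read -0.43 against -1.02. Another of TSR1 read -0.16 against -0.73, and dimmer ones of NOP16 read -0.18 and -0.13 against -1.33. For A549 minus H460a with vehicle, averaged over both times, 35 of the 42 had the direction of the one used. The other probe set of MRTO4 read 0.74 there, against -0.31. MYC has a single probe set here.

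Genes fell whether or not the E-box stood in the promoter window. Of the 14 genes with it 13 fell in H460a vehicle, with a median of -0.60 (from -1.04 to -0.11), and of the 20 genes without it 17 fell, with a median of -0.67 (from -1.44 to 0.39). The one gene with the E-box that did not pass was FBL.

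In A549 no comparable fall was seen, and the direction of most genes between 6 and 24 h depended on the scaling. As deposited, 21 of the 39 genes rose with vehicle (29.2% of all genes did) and 3 fell (15%), with a median of 0.17. After quantile normalization 5 rose (16.6% of all genes) and 18 fell (22.1%), with a median of -0.13, while the median of all genes moved from 0.01 to -0.05. The early vehicle arrays are the dim ones, so time and brightness move together in this comparison, and the part of brightness in the deposited result was not tested beyond this scaling. These arrays are dim in mean intensity only, as their median intensities were 99.35 to 102.1, against 95.96 to 98.7 at 24 h. All 39 members had a mean level above the median of all genes.

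**Figure D2:**
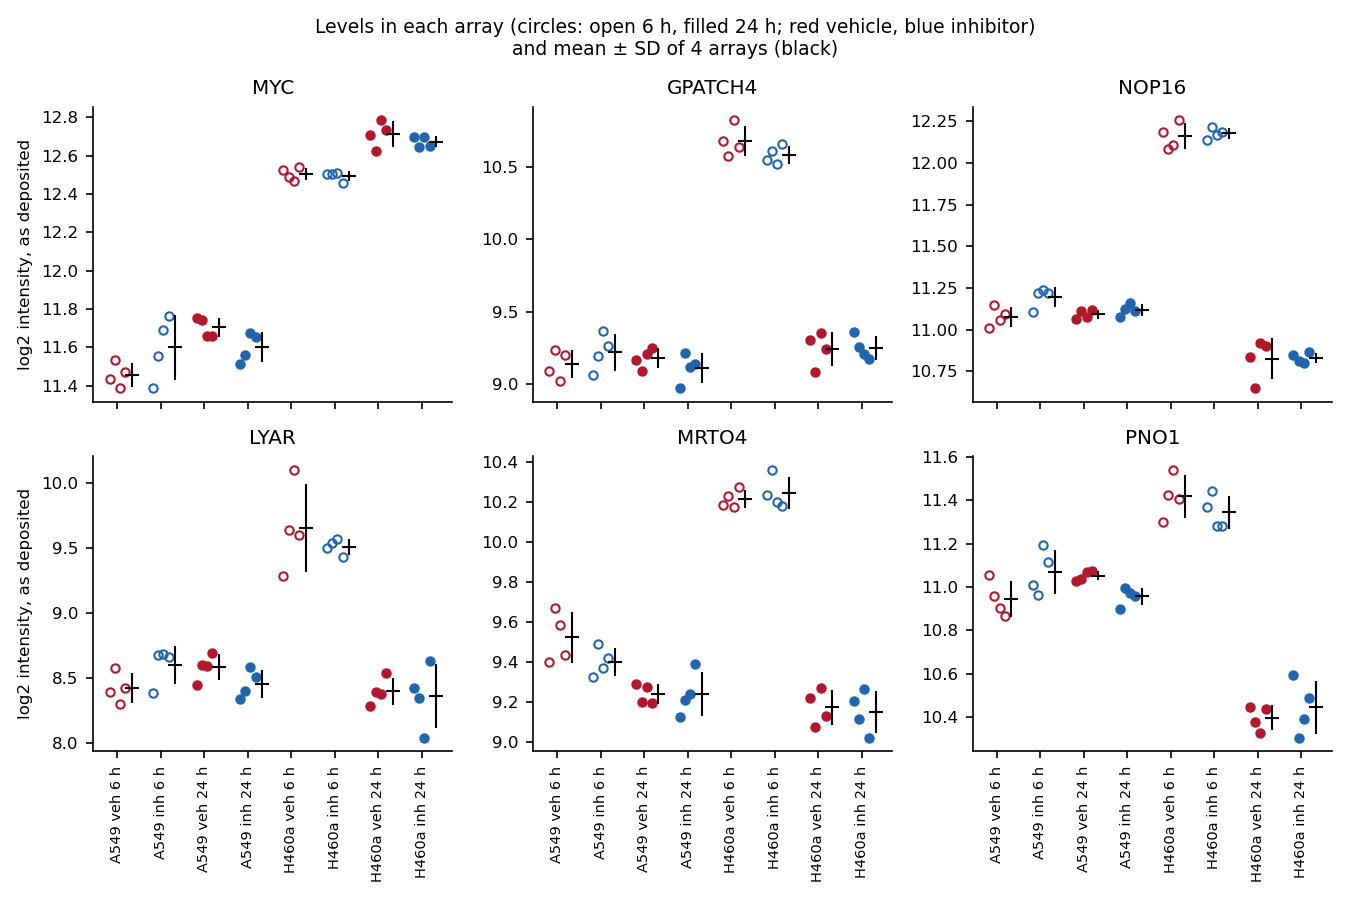
Levels of MYC and the 5 genes with the largest falls in H460a vehicle, as log2 intensity as deposited, for each array (circles, open at 6 h and filled at 24 h, red vehicle and blue inhibitor) with the mean ± SD of 4 arrays in black, in each of the 8 groups. In H460a GPATCH4 drops from between 10.52 and 10.82 at 6 h to between 9.08 and 9.36 at 24 h, whereas in A549 it stays between 8.97 and 9.36 at both times.

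Seen gene by gene, 5 rose in A549 under both scalings: WDR43, NIP7, RRP1B, POLR1B and RRP15. WDR43, a subunit of the processome module that acts with polymerase I, stood at 9.10, 9.15, 9.10 and 9.15 at 6 h and at 9.94, 9.92, 10.07 and 9.97 at 24 h. The groups lay far apart, and WDR43 rose by 0.85 ± 0.12, or 0.63 ± 0.10 after quantile normalization (adjusted p = 1.21e-06 and 1.34e-05, limma). NIP7, a large subunit factor, stood at 9.43, 9.10, 9.12 and 9.15 and then at 9.70, 9.78, 9.79 and 9.72, a rise of 0.55 ± 0.11 (0.32 after quantile normalization). RRP1B stood at 10.41, 10.39, 10.23 and 10.47 and then at 10.72, 10.75, 10.95 and 10.93, a rise of 0.47 (0.19). Neither gene's arrays overlapped as deposited. POLR1B and RRP15 rose by 0.42 and 0.41 (0.19 and 0.21). The other probe set of RRP1B, with a mean level of 8.69, read -0.13 as deposited. Those of NIP7 and RRP15 read 0.77 and 0.44, and those of POLR1B 0.02, 0.06 and 0.31.

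MRTO4, NAT10 and NOP2 fell under both scalings. MRTO4 stood at 9.40, 9.67, 9.59 and 9.44 at 6 h and at 9.29, 9.20, 9.27 and 9.20 at 24 h, a fall by 0.28 ± 0.069 as deposited and by 0.53 after quantile normalization. NAT10 went from 10.28, 10.25, 10.31 and 10.20 to 9.94, 10.06, 10.07 and 10.07, a fall by 0.23 (0.49). NOP2 went from 10.16, 10.19, 10.06 and 10.16 to 9.89, 9.90, 10.01 and 9.96, a fall by 0.20 (0.46). Late arrays were below early ones in all 3 genes.

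MYC, NCL, NOLC1, FBL and NHP2 changed direction with the scaling, being called higher as deposited and lower after quantile normalization. MYC stood at 11.43, 11.53, 11.39 and 11.47 in A549 vehicle at 6 h and at 11.75, 11.74, 11.66 and 11.66 at 24 h as deposited, a difference of 0.25 ± 0.063 (adjusted p = 0.0018). After quantile normalization it stood at 11.73, 11.83, 11.77 and 11.79 and then at 11.73, 11.68, 11.60 and 11.60, a difference of -0.13 ± 0.048 (adjusted p = 0.0352), with ranges that touch at 11.73. No direction for MYC between these times in A549 can be given from the vehicle arrays. NPM1 (0.46 as deposited, 0.07 after quantile normalization) and DDX21 (0.45 and 0.06) rose as deposited only. NPM1 stood at 14.14, 14.02, 13.95 and 13.97 and then at 14.47, 14.46, 14.49 and 14.50, and DDX21 at 11.81, 11.83, 11.59 and 11.76 and then at 12.17, 12.16, 12.24 and 12.23, as deposited.

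The A549 inhibitor arrays gave smaller differences between the times than the vehicle arrays as deposited, but the median was not smaller after quantile normalization. As deposited 2 genes rose, MYBBP1A (0.26) and NOB1 (0.22), against 14.5% of all genes, and DDX10 fell by 0.18, against 4.22%. After quantile normalization none rose (9.89% of all genes did) and 16 fell (7.59%), with a median of -0.16, and at an unadjusted p under 0.05 the count was 22 of 39. Of these 16, 12 had also fallen with vehicle after quantile normalization: MYC, NCL, NOLC1, GPATCH4, NHP2, DDX10, NAT10, RRP12, PNO1, NOP2, NOP16 and MRTO4. MYC stood at 11.39, 11.55, 11.69 and 11.77 with inhibitor at 6 h and at 11.51, 11.56, 11.68 and 11.65 at 24 h as deposited, in overlapping ranges. After quantile normalization MYC fell by 0.16 ± 0.048 (adjusted p = 0.0211).

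**Figure D3:**
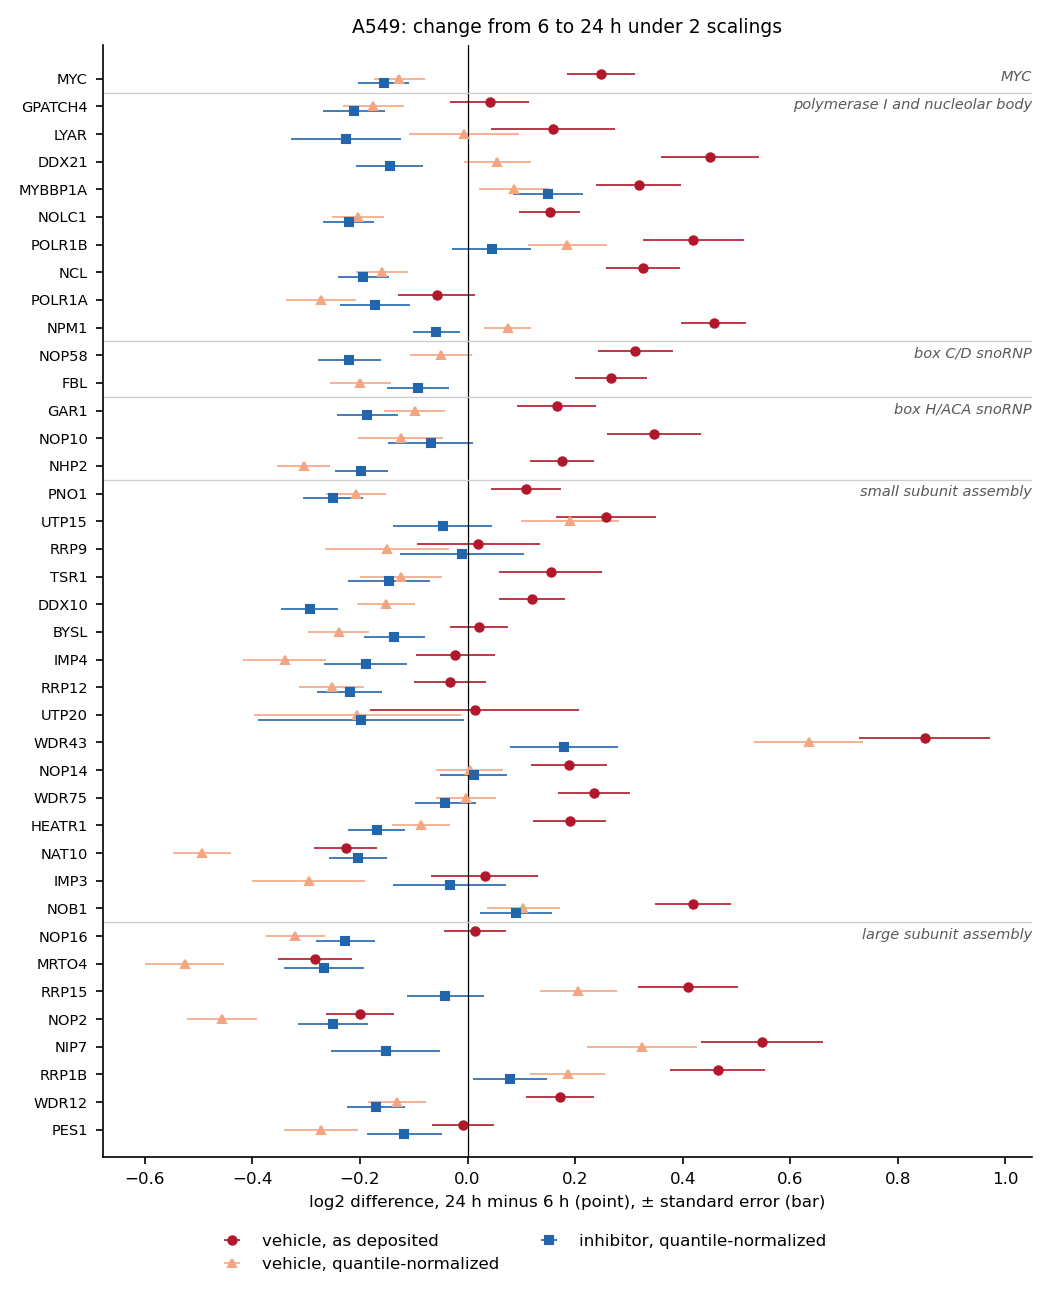
Difference between 24 and 6 h in A549 for the 39 genes, as log2 difference (point) ± standard error (bar), by role; red circles are vehicle as deposited, orange triangles vehicle after quantile normalization and blue squares inhibitor after quantile normalization, with 4 arrays a time. The medians are 0.17, -0.13 and -0.16, and the circles lie to the right of the triangles of the same gene.

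The time changes of the lines were then compared directly, as the difference between 24 and 6 h in A549 minus that in H460a. With vehicle 33 of the 39 genes were higher, against 24.4% of all genes, and none was lower (11.1%; 35 of 39 had an unadjusted p under 0.05), with a median of 0.76 against -0.00 over all genes. After quantile normalization 26 were higher (14.2% of all genes) and 4 lower (16.8%), with a median of 0.45. The inhibitor arrays, which are separate arrays, gave 32 higher and 0 lower genes as deposited (19.5% and 8.91% of all genes, with an unadjusted p under 0.05 in 33 members). After quantile normalization they gave 26 and 2 (11.9% and 11.3%).

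GPATCH4 had the largest difference of this kind, 1.48 ± 0.10 (adjusted p = 3.95e-12), made up of 0.04 in A549 and -1.44 in H460a. LYAR followed with 1.42 ± 0.16, WDR43 with 1.39 ± 0.17, NOP16 with 1.35 ± 0.081 and NIP7 with 1.31 ± 0.16. All 5 also passed after quantile normalization, at 1.22, 1.205, 1.14, 0.96 and 1.05, and in the inhibitor arrays as deposited, at 1.23, 1.00, 1.08, 1.27 and 0.78. WDR43 and NIP7 rose in A549 and fell in H460a under both scalings, while GPATCH4, LYAR and NOP16 owed the difference mainly to H460a. In A549 GPATCH4 was called lower after quantile normalization (-0.175). Another GPATCH4 probe set almost as bright (mean level 9.39 against 9.55) read -0.25 in A549 and -1.80 in H460a as deposited. MYC differed by 0.04 ± 0.089 as deposited and by -0.33 ± 0.067 after quantile normalization, so its direction flips, and POLR1A, IMP3, UTP20, NAT10 and NOB1 did not pass as deposited. IMP3, NAT10 and NOB1 were called lower with MYC after quantile normalization, at -0.42, -0.29 and -0.30.

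The lines differed at 6 h in nearly all members, and much less at 24 h. These comparisons use the same vehicle arrays as the time comparisons above, so they restate them from another side. In A549 30 genes were lower than in H460a at 6 h (28.6% of all genes were) and 4 higher (28.5%), with a median of -0.65. At 24 h 5 were lower (21.7%) and 14 higher (25.2%), with a median of 0.07. Averaged over both times 26 were lower (27.9%) and 7 higher (28.8%), with a median of -0.31. After quantile normalization 27 were lower at 6 h (22.9% of all genes) and 7 higher (32.8%), and 7 were lower at 24 h (22.8%) and 14 higher (25.5%). Averaged over both times 23 were then lower (25.2%) and 10 higher (31.6%). At 24 h the shares of members that were lower lay under those of all genes in both scalings.

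MYC was lower in A549 at both times: by 1.05 ± 0.063 at 6 h and 1.01 ± 0.063 at 24 h (adjusted p = 5.16e-16 and 1.52e-15, limma), and by 0.62 and 0.95 after quantile normalization. All 16 A549 arrays, from 11.39 to 11.77, lay below all 16 H460a arrays, from 12.46 to 12.78. The lower level of A549 was shared at both times by NOLC1, WDR75, TSR1 and WDR12. NOLC1 stood at 11.33, 11.29, 11.17 and 11.34 in A549 and at 12.67, 12.77, 12.77 and 12.69 in H460a at 6 h. By 24 h it was at 11.40, 11.51, 11.43 and 11.40 in A549 and at 12.02, 11.90, 12.05 and 12.03 in H460a, and the difference had gone from -1.44 (-1.05 after quantile normalization) to -0.56. TSR1 stood at 10.41, 10.49, 10.37 and 10.35 in A549 and 11.64, 11.65, 11.54 and 11.73 in H460a at 6 h, a difference of -1.23 (-0.93), and of -0.35 at 24 h. For NOLC1 and TSR1 the arrays of the lines did not overlap at either time.

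POLR1A, FBL, DDX10 and NOB1 were higher in A549 at both times. DDX10, a helicase of the small subunit processome, stood at 10.25, 10.37, 10.24 and 10.31 in A549 and at 9.65, 9.67, 9.85 and 9.68 in H460a at 6 h. By 24 h it was at 10.41, 10.35, 10.49 and 10.39 in A549 and at 9.09, 8.99, 9.15 and 8.97 in H460a. The difference was 0.58 ± 0.061 at 6 h (0.86 after quantile normalization) and 1.36 ± 0.061 at 24 h, 2.56-fold, with no overlap. FBL was higher in A549 by 0.37 at 6 h (0.88 after quantile normalization) and by 0.75 at 24 h, with 12.99, 13.10, 12.98 and 13.08 in its 6 h vehicle arrays. POLR1A, whose product is the largest polymerase I subunit, was higher by 0.42 at 6 h (0.58) and by 0.67 at 24 h, with 8.83, 9.00, 8.83 and 9.02 in A549 against 8.53, 8.46, 8.497 and 8.53 in H460a at 6 h. Averaged over both times it read 0.54 by the probe set used (mean level 8.66). Its other probe sets, with mean levels of 8.45 and 7.87, read 0.11 and 0.23. The POLR1A calls at each time rest on the probe set used.

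Between the times 8 genes went from lower to higher in A549: MYBBP1A, GAR1, WDR43, UTP15, PNO1, NOP16, RRP1B and NIP7. After quantile normalization this held for the same genes but NIP7. These calls are those of the probe sets used. Averaged over both times the other NIP7 probe set (mean level 9.28 against 9.37) read 0.60, against 0.18. From 6 to 24 h the other RRP1B probe set (mean level 8.69 against 10.76) read -0.13 in A549 and -0.36 in H460a, against 0.47 and -0.56. Whether these other probe sets turn between the times was not tested. NIP7 differed by -0.47 ± 0.11 at 6 h (-0.23 after quantile normalization, without a call) and by 0.84 ± 0.11 at 24 h. PNO1 differed by -0.47 (-0.13) at 6 h and by 0.66 at 24 h. GPATCH4, at -1.54 (-1.30) at 6 h, read -0.06 at 24 h with overlapping arrays, and RRP15, at -1.37 (-1.14), read -0.08. RRP15 stood at 9.10, 9.00, 8.91 and 9.09 in A549 and 10.30, 10.37, 10.59 and 10.29 in H460a at 6 h, and at 9.34, 9.39, 9.52 and 9.48 and 9.55, 9.38, 9.64 and 9.50 at 24 h. NOP10 differed by 0.57 at 24 h, and by -0.05 at 6 h as deposited without a call, which flips to a called 0.45 after quantile normalization. NOP2 differed by 0.07 (0.35, called) at 6 h and 0.72 at 24 h.

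**Figure D4:**
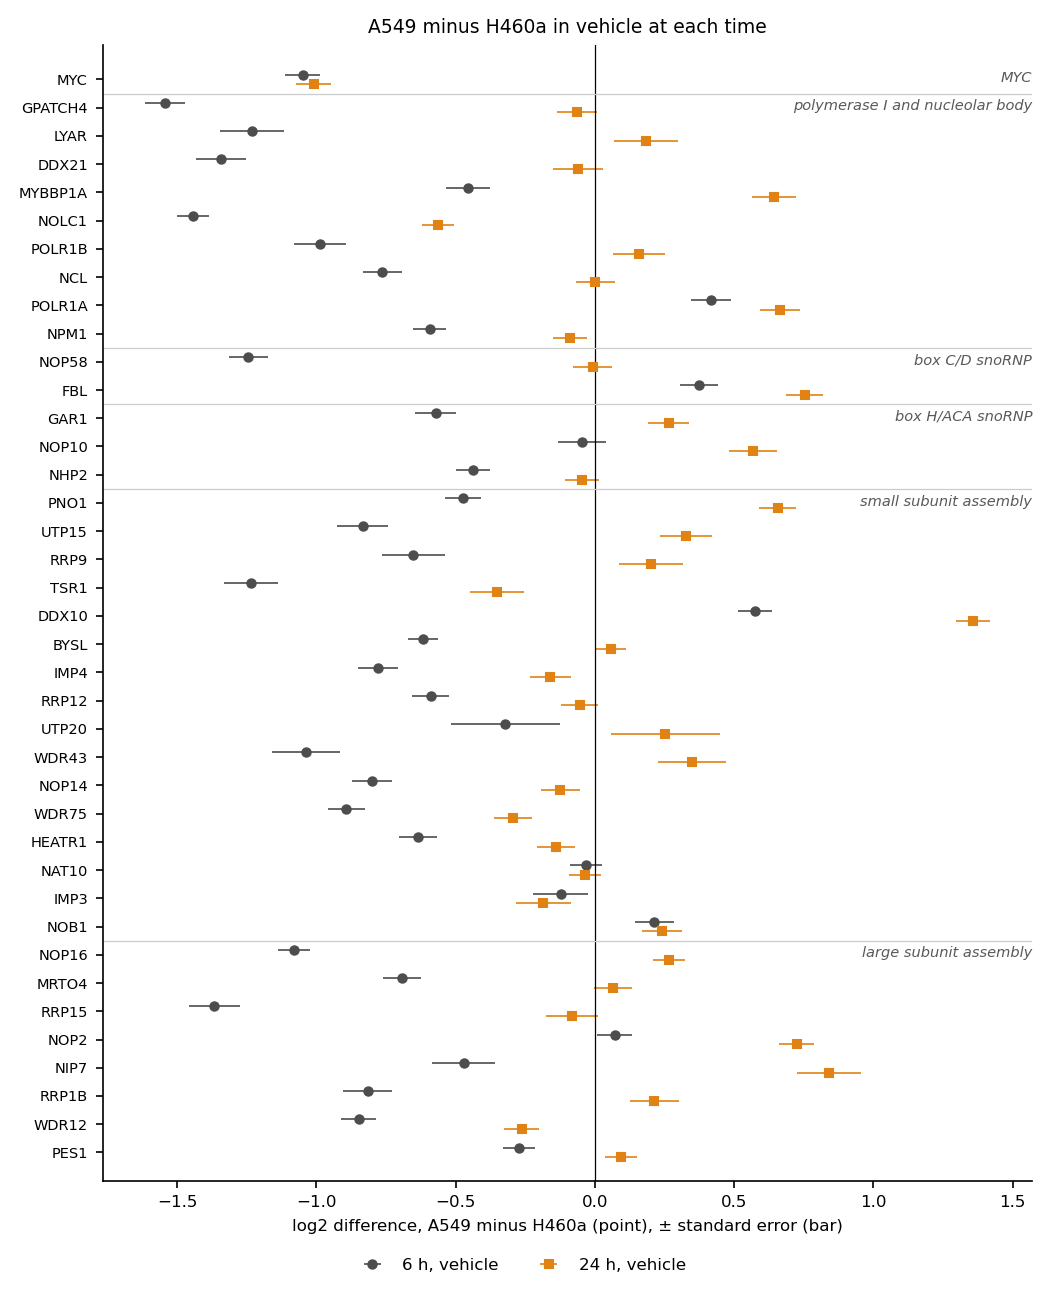
Difference between A549 and H460a with vehicle for the 39 genes, as log2 difference (point) ± standard error (bar), by role; grey circles are 6 h and orange squares 24 h, with 4 arrays a group. At 6 h 30 called genes lie left of 0, down to GPATCH4 at -1.54, while at 24 h the median is 0.07 and MYC remains at -1.01.

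The inhibitor comparison asks which of these genes differ between gamma-secretase inhibition and vehicle. In A549 at 6 h 8 genes were higher with the inhibitor, against 11.6% of all genes, and none was lower (1.51%; 16 of 39 had an unadjusted p under 0.05). They were NCL, NPM1, DDX21, NOP58, FBL, NHP2, WDR43 and NIP7. After quantile normalization none of the 39 was higher (1.34% of all genes) and NAT10 (-0.23) and MRTO4 (-0.26) were lower (1.48%; 7 of 39 with an unadjusted p under 0.05), and the median went from 0.12 to -0.06. The count of 8 was 1 without vehicle array 3, 5 without vehicle array 4, 13 without inhibitor array 1, 0 without inhibitor array 3 and 1 without inhibitor array 4. It was also 0 when the 8 arrays of this comparison were fitted alone.

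WDR43 shows how the inhibitor arrays divide. It stood at 9.26, 9.35, 9.93 and 9.64 with the inhibitor, against 9.10, 9.15, 9.10 and 9.15 with vehicle, a difference of 0.42 ± 0.12 (adjusted p = 0.0222, limma) and 0.30 after quantile normalization without a call. Inhibitor arrays 3 and 4, the higher pair, are the 2 of that group with mean intensities of 589 and 583. NIP7 stood at 9.51, 9.39, 9.67 and 9.65 against 9.43, 9.10, 9.12 and 9.15, DDX21 at 11.75, 11.89, 12.31 and 12.24 against 11.81, 11.83, 11.59 and 11.76, and NPM1 at 14.12, 14.24, 14.44 and 14.41 against 14.14, 14.02, 13.95 and 13.97. Arrays 3 and 4 were the highest for these genes as well, and the groups overlap in all 3. NCL differed by 0.27 as deposited and by -0.03 after quantile normalization.

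In A549 at 24 h DDX10 was the one gene called, and it was lower (0.885% of all genes were lower and 1.32% higher). It stood at 10.16, 10.20, 10.23 and 10.15 with the inhibitor against 10.41, 10.35, 10.49 and 10.39 with vehicle, without overlap. It fell by 0.23 ± 0.061 (adjusted p = 0.0384, and from 0.0481 to 0.154 when single arrays of the comparison were left out, with the call lost in 7 of 8 cases), by 0.23 after quantile normalization, and by 0.13 without a call (adjusted p = 0.447) when it was averaged with its other, dim probe set (mean level 4.70). In H460a at 24 h DDX10 differed by -0.22 ± 0.061, with an adjusted p of 0.382.

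In H460a no member was called with the inhibitor. At 6 h the shares of all genes were 0.0708% higher and 0.0253% lower, and 5 of the 39 had an unadjusted p under 0.05. At 24 h they were 0.00506% and 0%, with 1 of the 39, DDX10. Averaged over lines and times no member was called, against 1.79% of all genes higher and 0.399% lower (6 of 39 with an unadjusted p under 0.05), while 1 member was called lower and none higher after quantile normalization (0.85% and 0.936% of all genes), and 4 members were called with array weights. The inhibitor difference in A549 minus that in H460a gave no call at 6 h (0.086% and 0.0354% of all genes, 9 of 39 unadjusted) or at 24 h (0.364% and 0.273%, 1 of 39). After quantile normalization it gave none at 6 h either (0.086% higher and 0.116% lower over all genes, 9 of 39 unadjusted). The count was 1 at 6 h when genes under the median level were left out, and 3 without A549 inhibitor array 1.

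MYC, a known Notch target in some tissues, differed between inhibitor and vehicle by 0.14 ± 0.063 in A549 at 6 h, -0.10 ± 0.063 in A549 at 24 h, -0.01 ± 0.063 in H460a at 6 h and -0.04 ± 0.063 in H460a at 24 h. None was called, and the 95% intervals were 0.02 to 0.27, -0.23 to 0.02, -0.14 to 0.12 and -0.17 to 0.09. In A549 at 6 h the sign flips after quantile normalization (-0.07).

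**Figure D5:**
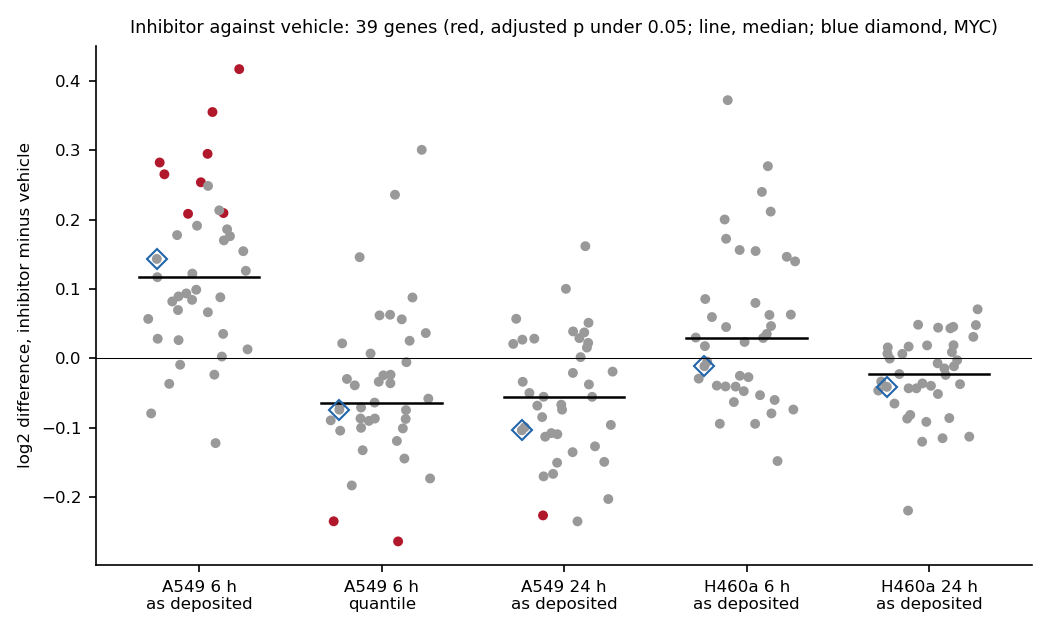
Difference between inhibitor and vehicle for each of the 39 genes (points, red where called; blue diamond, MYC; line, median), on the log2 scale, in each line and time as deposited and for A549 at 6 h after quantile normalization. The median is 0.12 in A549 at 6 h as deposited and -0.06 after quantile normalization, and lies between -0.06 and 0.03 in the other groups.

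Other genes of the same pathway moved with the 39 in the same H460a arrays. They come from lists of textbook members that were chosen with earlier results of these data known. With vehicle, 30 of 32 other small subunit factors fell between 6 and 24 h and none rose (15.3% and 15.1% of all genes), led by the methyltransferase EMG1 (-1.19), UTP4 (-0.94) and NOL11 (-0.86). Of 39 other large subunit factors 28 fell, led by the helicase DDX56 (-1.05), the GTPase GNL2 (-0.98) and FTSJ3 (-0.93), and RSL24D1 rose by 0.24. Of 13 other polymerase I genes 10 fell, led by the subunit POLR1G (-0.73), TAF1D (-0.70) and TTF1 (-0.62), and POLR1D rose by 0.33. Their medians were -0.61, -0.46 and -0.36, against -0.64 in the 39.

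The difference in time change, A549 minus H460a with vehicle, was higher for 30 of the 32 small subunit factors, 31 of the 39 large subunit factors and 11 of the 13 polymerase I genes, and lower for none, as deposited (24.4% and 11.1% of all genes). After quantile normalization 24, 19 and 7 were higher and LAS1L, of the large subunit list, was lower (14.2% and 16.8%). In A549 itself the counts depended on the scaling as for the members: the small subunit factors had 16 higher and 3 lower as deposited and 4 and 11 after quantile normalization. The large subunit factors had 18 and 1, and 4 and 17, and the polymerase I genes 8 and 0, and 5 and 4. Of all genes 29.2% were higher and 15% lower in A549 as deposited, and 16.6% and 22.1% after quantile normalization.

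Other known MYC targets outside ribosome assembly were measured in 23 genes. In H460a with vehicle 15 of them fell between 6 and 24 h (15.3% of all genes), led by the cell cycle phosphatase CDC25A (-1.30), ODC1, the first enzyme of polyamine synthesis (-1.002), and RCC1 (-0.90). One rose, SHMT2, a mitochondrial enzyme of serine metabolism (0.65, with 15.1% of all genes). With vehicle 19 of the 23 were lower in A549 than in H460a averaged over both times, led by SHMT2 (-1.88), ODC1 (-1.47) and CDC25A (-1.12), and CAD was higher (0.44), against 27.9% and 28.8% of all genes. After quantile normalization 16 were lower and 4 higher (CAD, SLC19A1, and LDHA and CDK4, which turned from -0.02 to 0.09 and from -0.14 to 0.10), against 25.2% and 31.6%. The size of the line difference depended on the time. As deposited ODC1 differed by -2.05 at 6 h and -0.89 at 24 h, and CDC25A by -1.67 and -0.57. RCC1 differed by -1.02 and, without a call, by -0.03, while SHMT2 went the other way, from -1.56 to -2.20. MYC itself did not fall in H460a with the targets that fell there.

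A further list held MYC network genes: MAX, other proteins that bind MAX or its relative MLX, and regulators or partners of MYC. Of 13 measured 3 rose and 2 fell in H460a with vehicle between 6 and 24 h, near the 15.1% and 15.3% of all genes. The 3 that rose were MXI1 by 1.29 ± 0.077 (adjusted p = 1.06e-14), MNT by 0.68 ± 0.069 (adjusted p = 1.32e-09) and MXD1 by 0.35. MXI1 and MNT encode repressors that pair with MAX at E-boxes. With the inhibitor MXI1 and MNT rose by 1.17 and 0.61, while MXD1 differed by -0.05 without a call. With vehicle MLXIP and MAX fell by 0.28 and 0.17. In A549 with vehicle 6 of the 13 rose and 1 fell as deposited, against 29.2% and 15% of all genes. After quantile normalization 5 rose and 3 fell, against 16.6% and 22.1%. MXI1, MNT, MGA, MAX and MXD1 rose under both scalings, by 0.68, 0.57, 0.44, 0.38 and 0.36 as deposited and by 0.40, 0.32, 0.28, 0.11 and 0.42 after quantile normalization, and MXD3 fell under both (-0.21 and -0.43). The rise of MXI1 was smaller in A549 than in H460a, with a difference of -0.61 ± 0.11 (adjusted p = 4.24e-05) as deposited and -0.88 after quantile normalization.

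With the inhibitor RCL1, a small subunit factor, was lower in A549 at 6 h (-0.36 as deposited and -0.50 after quantile normalization) and at 24 h (-0.25 and -0.25). As deposited it was the only gene of these 3 other ribosome lists (32, 39 and 13 genes) called lower in A549 at either time. Of all genes 1.51% were lower at 6 h and 0.885% at 24 h. Of the 32 small subunit factors UTP18, DCAF13 and KRR1 were called higher in A549 at 6 h as deposited. So were MAK16, NSA2 and RSL24D1 of the 39 large subunit factors and POLR1D of the 13 polymerase I genes. In each list this is a smaller share than the 11.6% of all genes. None of these higher genes was called after quantile normalization.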

How the data were processed

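Gene expression in 32 RNA samples was measured on Affymetrix human arrays, 4 in each of 8 groups taken from the sample labels. The deposited values are linear intensities per probe set. The submitters' processing notes name RMA for them, and its software and whether one run covered all arrays are not given in any source used here. The log2 of each deposited intensity was taken here without further scaling. Of 54675 probe sets, 62 controls, 1801 with several symbols and 11721 with no symbol in the platform annotation were left out, and 19775 genes remained, each by its probe set of highest mean. No filter on low values was used, and the number of arrays limits the precision (median standard error 0.09 for a difference of 2 groups).

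The 8 group means were fitted over all 32 arrays with limma 3.58.1 (lmFit and eBayes, 31.89 degrees of freedom) in R 4.3.3, and two-sided p-values were adjusted by Benjamini-Hochberg over all genes, with a threshold of 0.05. The fit was tested on simulated data. Alternatives were quantile normalization (of the 32 arrays together, or of each line by itself), centring, the mean over probe sets, a filter at the median level, other limma settings, a replicate block, a minimum difference of 0.58 and leaving out arrays. The use of inhibitor arrays in place of vehicle arrays, and of the 6 h arrays alone for the difference between lines, was chosen after seeing the data. Same-numbered arrays of different groups did not deviate together (correlations -0.35 to 0.32, 5 of 24 over 0.1), so the replicate number was not used as a pairing.

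The 45 genes and the other gene lists were chosen with earlier results of these data known. Values are given for MYC and, in each comparison, for the called members that rose most and fell most (up to 5 each way). Of each other list up to 3 called genes each way are named, by size, and HES1 serves as the check of the inhibitor in A549. Other genes given in passing were chosen after their values were seen.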

Additional observations from a re-analysis of the deposited data

Results flagged for a closer look

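In 11 of 176 groups of 4 arrays checked (22 members in 8 groups) a single array stood far from the other 3, its gap to the nearest exceeding Dixon's 95% critical share of the range, and chance gives about 1 in 20. In H460a vehicle array 3 at 6 h, the one with the high actin ratio, DDX10 was at 9.8539 (nearest 9.6832) and NOP10 at 12.4333 (nearest 12.9749). In H460a inhibitor array 3 at 24 h WDR43 was at 8.9285 (nearest 9.6445) and NCL at 13.0723 (nearest 13.282). In A549 inhibitor array 1 at 6 h NOP16 was at 11.1044 (nearest 11.2172) and LYAR at 8.382 (nearest 8.6626). NAT10 was low in array 1 of A549 at 24 h with vehicle (9.9401, nearest 10.0572) and with inhibitor (9.9947, nearest 10.1151). NIP7 was at 9.4254 in A549 vehicle array 1 at 6 h (nearest 9.152), NOLC1 at 11.9024 in H460a vehicle array 2 at 24 h (nearest 12.0219) and MYC at 12.455 in H460a inhibitor array 4 at 6 h (nearest 12.5025).

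The change between 6 and 24 h with vehicle differed between the lines by the test of that difference itself (limma, Benjamini-Hochberg) in 33 of the 39 genes, all higher in A549 minus H460a. The 5 with the largest differences were GPATCH4 (1.4788), LYAR (1.4154), WDR43 (1.3858), NOP16 (1.3467) and NIP7 (1.3125), each of which also passed after quantile normalization.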

How the results depend on the processing

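The falls of GPATCH4, NOP16, LYAR, MRTO4 and PNO1 in H460a, and the differences in time change of GPATCH4, LYAR, WDR43, NOP16 and NIP7, kept their direction and their call under the alternatives run. In the same difference MYC turned, and 4 members were called lower after quantile normalization against 0 as deposited. The inhibitor calls in A549 at 6 h and the direction of most A549 time changes depended on the scaling. Among the alternative values for counts of called members 232 stayed within 1.5 times the reported count and 37 did not. For the inhibitor in A549 at 6 h the count of 8 became 2 with quantile normalization over all arrays, 1 within each line, 5 with the mean over probe sets, and 0 with the comparison's own arrays, with a minimum difference of 0.58, or without A549 inhibitor arrays 3 and 4 and H460a vehicle array 3 at 6 h. Leaving out single arrays gave 0 to 13. For A549 at 24 h the count of 1 became 0 with the mean over probe sets or the minimum difference, 2 with own arrays or array weights, and 0 to 1 without single arrays. Averaged over lines and times the count of 0 became 1 under either quantile normalization, the median filter, or trend and robust eBayes, 4 with array weights, and 0 to 1 without single arrays, being 1 without A549 inhibitor array 1 at 6 h or H460a inhibitor array 1 or 3 at 24 h. For A549 minus H460a at 6 h it became 1 with the median filter and 0 to 3 without single arrays. With the minimum difference the time counts fell from 24 to 1 in A549 and from 36 to 20 in H460a, and that between lines from 33 to 9. It was 19 from 24 h arrays alone, and 3 for the A549 time change from inhibitor arrays.

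Signs turned for NCL (-0.0296 and -0.0285, over all arrays and within lines) and MYC (-0.0739 and -0.0697) with the inhibitor in A549 at 6 h under quantile normalization. MYC turned likewise in the A549 time change (-0.1267 and -0.1194) and in A549 minus H460a (-0.3307 and -0.3144, and -0.1782 from inhibitor arrays). NIP7 read -0.0436 in the A549 time change of inhibitor arrays, and NOP10 -0.0458 between lines at 6 h alone. MYC with the inhibitor in H460a at 6 h ranged from -0.0235 to 0.0014 without single arrays. The causes were not tested. With a replicate block the counts were 7 and 1 for the inhibitor in A549 at 6 and 24 h, 0 in H460a at both times, 0 averaged and 0 for A549 minus H460a at both times. They were 24, 36 and 33 for the time changes in A549, in H460a and between them, and 32 between the lines.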
